A study of Mus musculus with 45 samples.

Results

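Embryoid bodies (EBs) of 2 murine embryonic stem cell (ESC) lines were compared after 12 days of differentiation: a line carrying a scrambled control construct (SCR) and the wild-type line (WT). The 6 arrays of this comparison, 3 from each line, were taken by line and day from a series of 45, and all 18193 genes that had a probe set with 1 gene symbol were tested. Both lines are labelled as male and of strain 129, and both were differentiated by the hanging drop method. Total RNA was measured on Affymetrix expression arrays for mouse. The other groups used here are WT and SCR ESCs and EBs of days 4, 8 and 16, and day 12 EBs of a line labelled as silenced for Strip2 (KD-labelled), again with 3 arrays each. How the scrambled construct was delivered, and whether the SCR line is 1 clone, is not given in the sources used here. SCR and WT are both controls by their labels, so the comparison asks how far the controls differed from each other.

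Hanging drops let stem cells aggregate, and the aggregates then form derivatives of the 3 germ layers without a fixed plan. Beating heart muscle, vessels, blood, gut and liver-like endoderm, extraembryonic endoderm and mesenchyme appear side by side in such bodies by the middle of the second week. A level measured in whole EBs therefore depends on how many cells of a type are present as well as on the RNA in each of them, and in all results below fewer cells of a type and less RNA per cell cannot be told apart.

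Levels are log2 signals, a difference is SCR minus WT on that scale, and a call means that limma's moderated test gave an adjusted p (Benjamini-Hochberg, over all 18193 genes) under 0.05. Medians of the 6 arrays lay between 5.06 and 5.14, and the precision of every value is limited by 3 arrays a group. Nothing in the labels ties the 3 arrays of a group to 3 cultures. Every p-value here reflects only how far arrays of a group scattered, which may be technical spread. In the main fit that spread was pooled over all 45 arrays in 15 groups, so it is not that of the day 12 arrays alone. The core pluripotency factor gene Pou5f1 stood at 5.82, 6.8 and 5.85 in WT and at 5.23, 5.31 and 6.46 in SCR EBs (difference -0.49, SE 0.37, adjusted p = 0.43). The mean of 25 pluripotency genes lay between 5.31 and 6.39 in the 6 arrays and between 10.18 and 10.27 in KD-labelled EBs of the same day, so that WT and SCR EBs had both left the level of that line.

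WT replicate 2 stood apart from the other WT arrays. Across genes, which are not independent of each other, it correlated at 0.992 and 0.991 with WT replicates 1 and 3 and at 0.99 to 0.992 with the SCR arrays. WT replicates 1 and 3 correlated at 0.995 with each other and at 0.978 to 0.982 with SCR, and the SCR arrays at 0.994 to 0.995 among themselves. Each WT array was also left out in turn and its place read over the genes then called with at least a 2-fold difference, which were chosen on the other arrays. Of 835 such genes without WT replicate 2, that array lay shifted from the other WT arrays toward SCR in 798 (95.6%), a median of 44.8% of the way, and was nearer the SCR mean in 335 (40.1%). WT replicate 1 was shifted toward SCR in 109 of its 489 genes (22.3%) and WT replicate 3 in 134 of its 499 (26.9%). WT replicate 2 was kept, since nothing in the labels sets it aside. The counts over all genes and those of several lists, not of every list, are given with and without it.

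In all, 2678 of 18193 genes were called (14.7%), of which 1283 (7.05%) were higher and 1395 (7.67%) lower in SCR EBs. These 2 shares are the background for every list count of day 12 below. A count near them says nothing about the list. A difference of at least 2-fold was called for 587 genes (3.23%), 337 higher (1.85%) and 250 lower (1.37%). Without WT replicate 2 the calls numbered 3434 (18.9%), with 438 rises (2.41%) and 397 falls (2.18%) of at least 2-fold. They fell to 1448 without WT replicate 1, to 1500 without WT replicate 3 and to 1538 in a fit of the 6 arrays of day 12 alone. The median difference over all genes was -0.04. In 5336 genes (29.3%) the 3 SCR arrays lay wholly above or below the 3 WT arrays. At the other stages the same contrast called 1847 genes in ESCs (10.2%), 352 at day 4 (1.93%), 1272 at day 8 (6.99%) and 1476 at day 16 (8.11%).

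**Figure D1:**
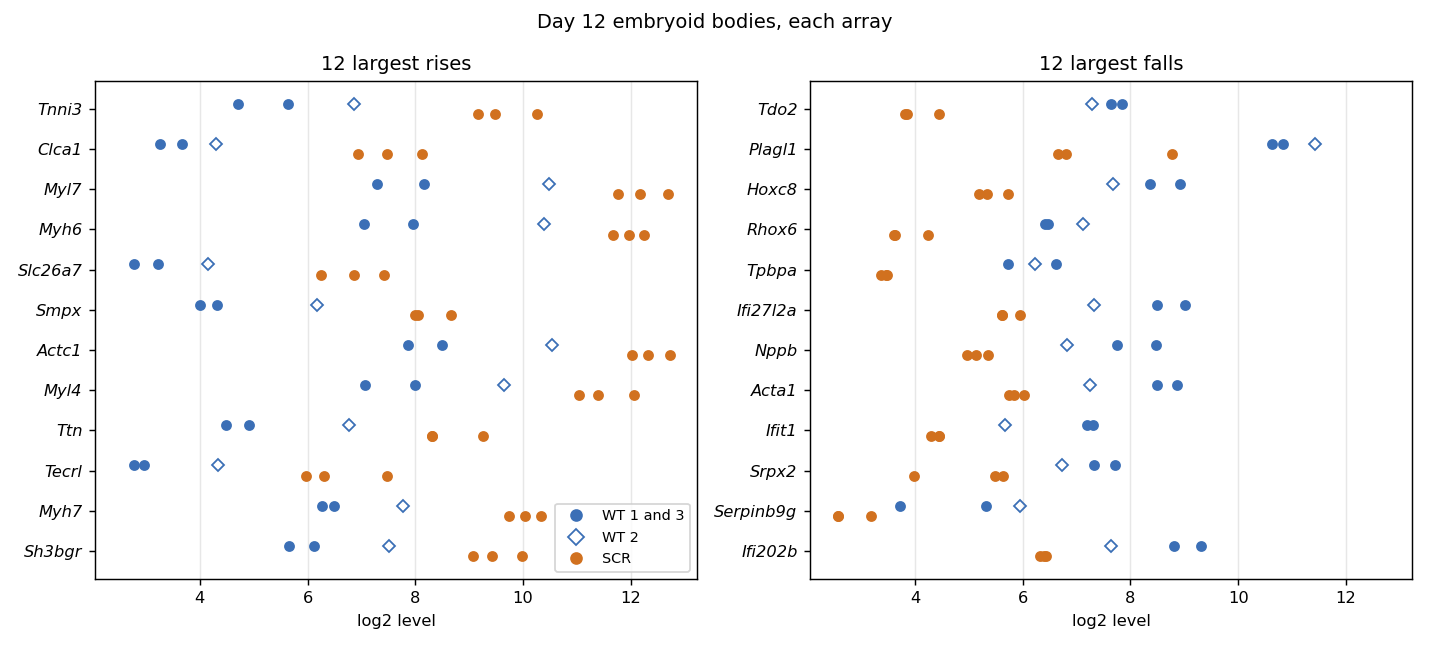
Log2 level (horizontal axis) of the 12 genes with the largest rises and the 12 with the largest falls in SCR against WT EBs of day 12; each point is an array, and the open diamond is WT replicate 2. The SCR arrays (orange) and WT arrays (blue) do not overlap because the genes were chosen so, and in the rises WT replicate 2 lies nearest SCR of the WT arrays.

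The clearest difference lay in heart muscle. The cardiac sarcomere is built of myosin and actin filaments, the troponin switch on the thin filament, and titin and its partners at the Z disc and M band. All 18 sarcomere genes of the list were higher in SCR EBs (background of rises 7.05%), with differences of 0.92 to 3.9 and a median of 2.86, against -0.04 over all genes. The mean level of the list was 6.78, 8.09 and 6.46 in WT replicates 1, 2 and 3, and 10.03, 9.48 and 9.85 in SCR. WT replicate 2 was thus the highest WT array, and the groups did not overlap in any of the 18 genes (background of rises without overlap 13.5%). Without it all 18 were called as well, with a median of 3.39.

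Among the thick filament genes, Myh6, the alpha-myosin heavy chain of the heart, stood at 7.95, 10.39 and 7.04 in WT and at 12.25, 11.68 and 11.97 in SCR arrays (11.4-fold higher, difference 3.51, SE 0.56, adjusted p = 2.6e-05). Its slow partner Myh7 stood at 6.49, 7.78 and 6.27 against 10.33, 9.75 and 10.04 (difference 3.19, SE 0.43, adjusted p = 1.9e-06). The atrial regulatory light chain Myl7 stood at 8.17, 10.48 and 7.29 against 12.7, 11.77 and 12.18 (difference 3.57, SE 0.54, adjusted p = 9.1e-06). In each of these genes WT replicate 2 lay more than 1 log2 unit above the other WT arrays and below every SCR array. The ventricular light chain gene Myl2, named after its value was seen, was higher by 2.98 and the atrial Myl4 by 3.26, so that light chains of both chamber types were among the rises.

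Of the thin filament, Tnni3, the cardiac inhibitory troponin and the largest rise of all named genes, stood at 5.64, 6.87 and 4.7 in WT and at 10.26, 9.17 and 9.49 in SCR EBs (15-fold higher, difference 3.9, SE 0.43, adjusted p = 3.4e-08). The cardiac actin gene Actc1 stood at 8.5, 10.54 and 7.86 against 12.73, 12.03 and 12.33 (10.5-fold, SE 0.49, adjusted p = 5.8e-06). Titin (Ttn), the spring that spans each sarcomere from Z disc to M band, stood at 4.49, 6.77 and 4.92 against 8.32, 8.32 and 9.26 (9.45-fold, SE 0.51, adjusted p = 1.7e-05). Other muscle genes among the 12 largest rises were Smpx, a small protein of striated muscle (10.6-fold), Tecrl, an enoyl reductase-like gene of heart (9.34-fold), and Sh3bgr (8.36-fold).

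Serum response factor drives many sarcomere genes through a short element, the CArG box, in their promoters, and the stretches that hold it are shown for the 4 list members in which it was found, which the match and not the size of the change chose. The RefSeq promoter windows (build GRCm38.p6, 250 bases before the start site searched on both strands) covered 17 of the 18 genes. Of these 17, 4 held the box in any of their windows. Over all single windows it stood in 482 of 32851 (1.47%), a share of windows and not of genes, so the counts are not like measures. The box is in capitals, on the strand of the gene. Myl7 lies at chr11:5898794-5898883 (minus strand), Actc1 at chr2:114052876-114052962 (minus), Myom1 at chr17:71019418-71019507 (plus) and Myl3 at chr9:110763553-110763642 (plus). A match is a description of these letters and not a site shown to be bound.
Myl7: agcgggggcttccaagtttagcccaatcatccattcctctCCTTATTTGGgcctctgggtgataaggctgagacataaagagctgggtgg
Actc1: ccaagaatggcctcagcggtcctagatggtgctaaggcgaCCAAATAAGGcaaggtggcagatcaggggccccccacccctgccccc
Myom1: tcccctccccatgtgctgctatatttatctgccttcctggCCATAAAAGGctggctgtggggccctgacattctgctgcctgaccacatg
Myl3: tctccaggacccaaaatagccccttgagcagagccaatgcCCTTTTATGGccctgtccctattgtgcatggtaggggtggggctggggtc

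The factors that specify and maintain the heart moved less than the sarcomere genes. Of 12 cardiac transcription factor genes 6 were higher and none lower, with a median of 0.7. Isl1, a marker of second heart field progenitors, stood at 6.39, 7.88 and 6.24 in WT and at 8.99, 8.83 and 9.13 in SCR EBs (difference 2.15, SE 0.27, adjusted p = 6.3e-07). Myocd, the coactivator of serum response factor, was higher by 1.32 (SE 0.29, adjusted p = 0.0012), Mef2c by 1.06 (adjusted p = 0.0028) and Nkx2-5, the homeobox gene of the early heart, by 0.93 (adjusted p = 0.0051). Nkx2-5 stood at 4.87, 4.97 and 5.23 against 6.11, 5.63 and 6.13, without overlap. The GATA factor gene Gata4 did not pass (difference 0.19, SE 0.22, adjusted p = 0.64), nor did Hand2 (-0.49, adjusted p = 0.081), both named after their values were seen. Without WT replicate 2, 6 members were higher and 2 lower.

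Genes of calcium handling rose while the natriuretic peptide genes fell. Of 9 measured genes of that list 5 were higher and 2 lower. Phospholamban (Pln), the inhibitor of the calcium pump of the sarcoplasmic reticulum, stood at 5.12, 6.6 and 4.93 in WT and at 8.6, 8.72 and 8.03 in SCR EBs (7.46-fold higher, SE 0.28, adjusted p = 4.6e-09). The ryanodine receptor gene Ryr2, the calcium release channel, was 5.6-fold higher (SE 0.3, adjusted p = 2.9e-07), and sarcolipin (Sln), another inhibitor of the pump, 2.53-fold higher (adjusted p = 3.9e-05). In the opposite direction Nppb, the B-type natriuretic peptide that heart muscle secretes under stretch, stood at 8.48, 6.83 and 7.75 in WT and at 5.36, 5.13 and 4.96 in SCR EBs (5.8-fold lower, difference -2.54, SE 0.39, adjusted p = 1.2e-05). Nppa, its atrial relative, stood at 4.91, 3.94 and 4.21 against 3.15, 3.38 and 3.43 (difference -1.03, SE 0.3, adjusted p = 0.017). The call for Nppa was lost without WT replicate 1 (-0.76, adjusted p = 0.18) and without SCR replicate 1.

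Skeletal and smooth muscle genes did not share the rise of the sarcomere list. Of 13 skeletal muscle genes none was higher and 3 were lower. Acta1, the skeletal alpha-actin that embryonic heart also makes, stood at 8.87, 7.25 and 8.5 in WT and at 5.75, 5.83 and 6.02 in SCR EBs (5.06-fold lower, difference -2.34, SE 0.3, adjusted p = 9e-07), the opposite of its cardiac relative Actc1. The fast troponin genes Tnni2 (difference -1, adjusted p = 0.0005) and Tnnt3 (-0.69, adjusted p = 0.0029) were lower too, Tnnt3 with an adjusted p of 0.053 without WT replicate 1. Of 9 smooth muscle genes 1 was higher, Synpo2 (0.93, adjusted p = 0.013), and 1 lower, Tagln (-1.02, adjusted p = 0.0496), near the background of 7.05% and 7.67%. The first call was lost without SCR replicate 2, SCR replicate 3 or WT replicate 1 (0.68, adjusted p = 0.15), and the second when any array other than SCR replicate 3 was left out, most without SCR replicate 2 (-0.81, adjusted p = 0.22). Acta2, the smooth muscle actin, stood at 12.57 to 12.73 in WT and at 12.21 to 12.67 in SCR arrays (difference -0.21, SE 0.32, adjusted p = 0.74).

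Vessel genes were higher in SCR EBs. Endothelium lines the vessels of EBs and is marked by junction proteins, receptors for growth factors and a few transcription factors. Of 17 endothelium genes 12 were higher and none lower (median 1); the mean of the list was 6.04, 6.2 and 6.05 in WT and 7.13, 6.87 and 6.98 in SCR arrays, without overlap. The junction gene Cdh5 (VE-cadherin) stood at 6.36, 6.98 and 6.01 in WT and at 8.59, 8.38 and 8.22 in SCR EBs (3.85-fold higher, SE 0.26, adjusted p = 1.4e-06). Pecam1, an adhesion molecule of endothelium and platelets, stood at 4.01, 5.29 and 4.89 against 6.17, 6.44 and 6.65 (3.23-fold, SE 0.31, adjusted p = 0.00015). The transcription factor gene Sox18 was 2.87-fold higher (adjusted p = 2.9e-05). Lyve1, a marker of lymphatic endothelium and some macrophages, stood at 8.39, 6.59 and 6.39 in SCR against 5.36 to 5.7 in WT arrays (difference 1.59, adjusted p = 0.012). Its value rested on SCR replicate 1, without which it was 0.95 (adjusted p = 0.18). Kdr, the VEGF receptor of endothelium and its precursors, named after its value was seen, stood at -0.28 (SE 0.2, adjusted p = 0.4). Without WT replicate 2, 11 members were called, all higher.

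Genes for plasma proteins of the liver were higher as well, while the yolk sac genes of the visceral endoderm were not. Of 12 liver plasma protein genes 7 were higher and none lower (median 1.08; 7 without WT replicate 2). Albumin (Alb), the main plasma protein, stood at 7.49, 8.66 and 8.9 in WT and at 10.46, 11.06 and 10.61 in SCR EBs (5.13-fold higher, SE 0.23, adjusted p = 3.4e-09). The fibrinogen chain gene Fgg stood at 4.78, 5.54 and 5.78 against 7.65, 7.5 and 6.9 (3.95-fold, SE 0.32, adjusted p = 2.6e-05), the apolipoprotein gene Apoa2 was 3.76-fold higher (adjusted p = 7.4e-05) and Serpinc1, antithrombin, 3.17-fold (adjusted p = 2e-06). SCR arrays lay above WT arrays in each of these genes.

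Of 14 genes of visceral endoderm and yolk sac none was higher and 4 were lower (2 without WT replicate 1, 2 or 3 or SCR replicate 1). Alpha-fetoprotein (Afp), made by visceral endoderm and fetal liver, stood at 11.72, 12.02 and 11.77 in WT and at 11.66, 11.78 and 11.65 in SCR EBs (difference -0.14, SE 0.41, adjusted p = 0.88). The endocytic receptor gene Lrp2 (megalin) stood at 5.19, 5.59 and 5.66 against 4.05, 4.15 and 4.63 (difference -1.2, SE 0.28, adjusted p = 0.0027), and the retinol carrier gene Rbp4 at -1.06 (adjusted p = 0.0027). The calls for Cubn (-0.99, adjusted p = 0.032) and the adaptor gene Dab2 (-0.73, adjusted p = 0.04) were lost when single arrays were left out, Cubn most without SCR replicate 1 (-0.48, adjusted p = 0.37) and Dab2 most without SCR replicate 3 (-0.57, adjusted p = 0.19). Of 9 gut epithelium genes 2 were higher and 2 lower: Tff3, a trefoil peptide of goblet cells, stood at -1.89 (SE 0.35, adjusted p = 0.0002) and the keratin gene Krt20 at -1.75 (SE 0.23, adjusted p = 9e-07), while Fabp1 (0.84) and Lgals4 (0.69) had overlapping arrays and lost their calls without WT replicate 1 (adjusted p = 0.17 and 0.3).

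Genes outside the lists were among the largest changes. Clca1, a secreted regulator of calcium-activated chloride channels known from goblet cells, stood at 3.67, 4.29 and 3.26 in WT and at 6.94, 7.47 and 8.13 in SCR EBs (13.7-fold higher, difference 3.77, SE 0.33, adjusted p = 5.2e-10). Slc26a7, an anion exchanger of kidney, stomach and thyroid, stood at 3.22, 4.15 and 2.77 against 7.42, 6.86 and 6.25 (11-fold, SE 0.23, adjusted p = 1e-12). Tdo2, the dioxygenase that starts the breakdown of tryptophan, was the largest fall, at 7.64, 7.29 and 7.84 in WT and 3.81, 3.84 and 4.45 in SCR EBs (11.8-fold lower, difference -3.56, SE 0.42, adjusted p = 1.6e-07). Srpx2, a secreted protein with sushi repeats, stood at 7.33, 6.73 and 7.72 against 3.97, 5.49 and 5.63 (4.69-fold lower, SE 0.29, adjusted p = 1.1e-06). The calls for all 24 of the largest rises and falls were kept with any 1 of the 6 arrays left out. These genes were chosen on the same arrays for large differences without overlap, so the kept calls are no separate support.

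**Figure D2:**
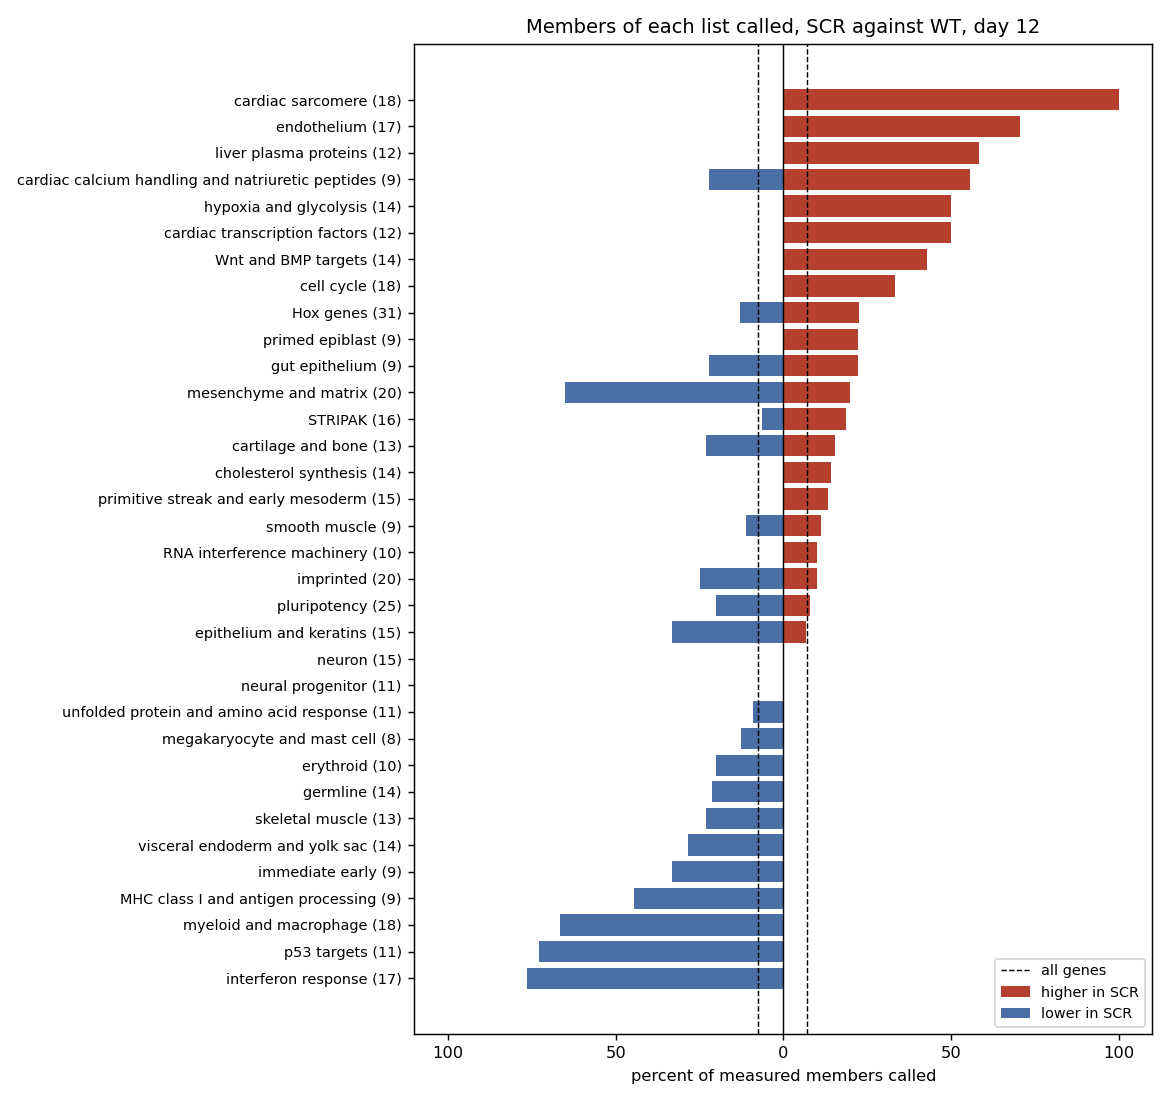
Percent of the measured members of each list (number measured in brackets, lists with at least 8) that were called higher (red, right) or lower (blue, left) in SCR EBs of day 12; dashed lines mark the share over all genes, 7.05% and 7.67%. The cardiac sarcomere list is called whole in the upward direction, and the interferon response list has the largest share of falls.

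Genes induced by interferon were lower in SCR EBs. Interferons induce proteins that bind foreign RNA or block viruses, and many of their genes carry an interferon-stimulated response element (ISRE) in the promoter. Of 17 measured genes 13 were lower and none higher (background of falls 7.67%), with a median of -0.78. The differences ranged from -2.32 to 0.85. All SCR arrays lay below all WT arrays in 12 genes (15.8% of all genes) and above them in 1 (13.5% of all genes). The mean of the interferon response list was 6.46, 5.78 and 6.38 in WT and 5.25, 5.3 and 5.28 in SCR arrays. WT replicate 2 lay between the other WT arrays and SCR. Without it 13 were lower, with a median of -1.02, and without WT replicate 1 the count was 8.

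Ifit1, which binds foreign RNA, stood at 7.19, 5.66 and 7.31 in WT and at 4.3, 4.44 and 4.45 in SCR EBs (5-fold lower, difference -2.32, SE 0.32, adjusted p = 2.1e-06). Its neighbour Ifit3 stood at 7.18, 5.92 and 7.05 against 4.92, 5.19 and 4.91 (3.27-fold lower, SE 0.25, adjusted p = 6.8e-06). Usp18, which removes the ubiquitin-like ISG15 and damps the response, was 3.41-fold lower (SE 0.26, adjusted p = 6.8e-06), and Bst2 (tetherin), which holds virions at the cell surface, 3.17-fold lower (SE 0.19, adjusted p = 1.2e-07). The gene Ifi27l2a, among the 12 largest falls, stood at 9.02, 7.32 and 8.5 against 5.61, 5.94 and 5.61 (5.9-fold lower, adjusted p = 3.4e-08), and Ifi202b, a DNA-binding interferon-activated gene, at 9.31, 7.64 and 8.81 against 6.32, 6.43 and 6.39 (4.62-fold lower, adjusted p = 9e-07). The SCR arrays were close together in these genes and WT replicate 2 was the lowest WT array in each.

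The ISRE was searched as GAAANNGAAA on both strands of the 250 bases before each start site in the RefSeq windows (build GRCm38.p6), in which matches may overlap. Of 15 interferon genes with a window 9 held it in any of their windows. Over all single windows it stood in 978 of 32851 (2.98%), a share of windows and not of genes, so the counts are not like measures. Among these, Stat2, Gbp2 and Gbp3 were not called. Rsad2 (-0.78) and Ddx60 (-0.55) were lower in SCR EBs by the smallest amounts and are not shown. The stretches below are of the members with the largest falls, with the element in capitals on the strand of the gene. They lie at chr19:34640745-34640853 (Ifit1, plus strand), chr19:34583367-34583456 (Ifit3, plus), chr8:71537547-71537642 (Bst2, minus) and chr5:120907526-120907585 (Oas1a, minus). Oas1a, an oligoadenylate synthetase named here for its match, was 3.17-fold lower (SE 0.21, adjusted p = 4.3e-07). In Bst2 and Oas1a 2 matches overlap.
Ifit1: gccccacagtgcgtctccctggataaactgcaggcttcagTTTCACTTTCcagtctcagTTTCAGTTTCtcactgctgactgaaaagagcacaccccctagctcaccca
Ifit3: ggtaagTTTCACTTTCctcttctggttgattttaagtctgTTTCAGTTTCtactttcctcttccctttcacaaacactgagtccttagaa
Bst2: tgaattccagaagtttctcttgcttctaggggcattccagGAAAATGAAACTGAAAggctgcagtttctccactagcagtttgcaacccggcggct
Oas1a: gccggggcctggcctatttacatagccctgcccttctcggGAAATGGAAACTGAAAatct

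Antigen presentation and white blood cell genes were lower with them. Of 9 genes of MHC class I and antigen processing 4 were lower and none higher, by small amounts: the light chain gene B2m stood at -0.73 (SE 0.2, adjusted p = 0.0088) and the peptide transporter gene Tap1 at -0.49 (adjusted p = 0.0064). The count was 1 without SCR replicate 3 or WT replicate 3, where B2m reached an adjusted p of 0.092 and Tap1 of 0.081. Of 18 myeloid and macrophage genes 12 were lower and none higher (median -0.76), with list means of 8.52, 7.94 and 8.36 in WT and 7.85, 7.6 and 7.2 in SCR arrays. Cd14, the co-receptor for endotoxin, stood at 6.53, 5.53 and 6.78 against 5, 4.89 and 5.12 (difference -1.28, SE 0.2, adjusted p = 1.4e-05), and the complement gene C1qa at 9.48, 8.67 and 9.57 against 8.48, 8.32 and 8.11 (-0.94, SE 0.23, adjusted p = 0.0036). Adgre1, a receptor on the surface of macrophages, stood at -1.19 (adjusted p = 0.0023), and at -0.78 (adjusted p = 0.056) without SCR replicate 3. The count fell to 5 without WT replicate 1 or SCR replicate 3 and was 13 without WT replicate 2. Ptprc (CD45), on all white blood cells, stood at -0.56 (SE 0.23, adjusted p = 0.11). The myeloid and interferon lists thus fell together, and the part of either in the fall of the other was not tested.

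Red cell genes were lower in 2 of 10 cases (background of falls 7.67%). The embryonic globin gene Hbb-bh1 stood at 12.16, 10.74 and 10.95 in WT and at 10.42, 8.98 and 10.64 in SCR EBs (difference -1.27, SE 0.43, adjusted p = 0.042), and Alas2, which starts haem synthesis in red cells, at -1.1 (adjusted p = 0.02) with overlapping arrays. Without SCR replicate 2, the lowest array of both genes, these values were -0.75 (adjusted p = 0.34) and -0.59 (adjusted p = 0.28), and without WT replicate 1 neither was called (Hbb-bh1 -0.83, adjusted p = 0.33). Without WT replicate 2 the list had 6 members lower. Pf4, the platelet factor of megakaryocytes, was lower by a difference of -1.04 (SE 0.24, adjusted p = 0.0022).

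Most connective tissue genes were lower, and a few were higher. Of 20 mesenchyme and matrix genes 13 were lower and 4 higher (13 and 4 without WT replicate 2), with a median of -0.73. Among the lower members the small proteoglycan gene Fmod (fibromodulin) stood at 9.75, 8.7 and 9.52 in WT and at 7.98, 7.64 and 7.25 in SCR EBs (3.25-fold lower, SE 0.3, adjusted p = 9.8e-05), Ogn (osteoglycin) at -1.85 (adjusted p = 0.018) and the surface glycoprotein gene Thy1 at -1.31 (SE 0.28, adjusted p = 0.0009). The collagen gene Col1a1 stood at 11.83, 11.54 and 11.54 against 10.76, 10.6 and 10.61 (-0.98, SE 0.24, adjusted p = 0.0032). Of the 4 higher members Pdgfrb, a receptor for platelet-derived growth factor, stood at 9.41, 10.2 and 9.19 against 11.15, 11.07 and 10.73 (2.61-fold higher, SE 0.32, adjusted p = 0.0026), and Twist1, Prrx1 and Pdgfra, named after their values were seen, at 1.15, 0.81 and 0.78. The rises numbered 2 without SCR replicate 2 or WT replicate 3. The call for Ogn was lost without WT replicate 3 (-1.49, adjusted p = 0.14) and without WT replicate 1, SCR replicate 1 or SCR replicate 3, and the count of falls was 9 without WT replicate 1, WT replicate 3 or SCR replicate 1.

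Single regulators of early mesoderm and cartilage were higher, while most members of their lists were not called. Foxc1, a forkhead factor of paraxial mesoderm, stood at 5.35, 6.31 and 4.97 in WT and at 7.73, 7.87 and 7.66 in SCR EBs (4.63-fold higher, SE 0.34, adjusted p = 1.2e-05), and Foxc2 was 2.53-fold higher (adjusted p = 0.0071; 0.13 without WT replicate 3). They were the only members called of 15 primitive streak and early mesoderm genes (1 without WT replicate 3; median 0.2). Of 13 cartilage and bone genes 2 were higher and 3 lower (median -0.2); the falls numbered 0 without SCR replicate 1 or WT replicate 3. Sox9, the master factor of cartilage, stood at 6.11, 6.43 and 5.87 against 7.67, 7.26 and 7.41 (2.48-fold higher, SE 0.21, adjusted p = 2e-05), and its collagen target Col9a1 at 8.12, 8.62 and 7.08 against 10.02, 9.92 and 9.75 (3.88-fold higher, SE 0.41, adjusted p = 0.00075). The falls of Hapln1 (-0.6, adjusted p = 0.028) and Col11a1 (-0.53, adjusted p = 0.035) each lost their call without 5 of the 6 arrays in turn, at most to adjusted p = 0.1 without WT replicate 1 and 0.23 without WT replicate 3, and the mean of its probe sets put Hapln1 at 0.21.

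Some targets of Wnt and BMP signals were higher. Of 14 Wnt and BMP target genes 6 were higher and none lower (median 0.22; 4 to 6 with single arrays left out). The inhibitors of differentiation Id3 (8.5, 9.14 and 7.83 in WT against 10.14, 9.9 and 10.05 in SCR EBs; 2.91-fold, SE 0.22, adjusted p = 5.8e-06) and Id1 (8.49, 9.12 and 8.53 against 9.85, 9.91 and 9.91; 2.26-fold, SE 0.2, adjusted p = 4e-05) respond directly to BMP. Their relative Id2 stood at 0.87 (adjusted p = 0.045), a call lost when any array other than WT replicate 2 was left out and weakest without WT replicate 3 (0.62, adjusted p = 0.3). Lgr5, a receptor for R-spondins and a Wnt target, stood at 4.5, 5.27 and 4.22 against 6.14, 6.07 and 6.1 (2.71-fold, SE 0.23, adjusted p = 2.9e-05). The common Wnt target Axin2 stood at -0.02.

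Targets of p53 were lower in most cases. Of 11 p53 targets 8 were lower and none higher (median -0.53; 8 without WT replicate 2 and 4 without WT replicate 1). The mean of the list was 9.68, 9.37 and 9.47 in WT and 8.87, 8.95 and 8.92 in SCR arrays. Fas, the death receptor, stood at 7.24, 6.26 and 6.81 against 5.44, 5.16 and 5.65 (2.56-fold lower, SE 0.2, adjusted p = 5.5e-06). Cdkn1a (p21), the inhibitor of cyclin-dependent kinases, stood at 11.32, 10.69 and 11.22 against 9.93, 10.02 and 10.26 (2.01-fold lower, SE 0.15, adjusted p = 5.3e-06), and Mdm2, the ubiquitin ligase that degrades p53, at -0.62 (SE 0.13, adjusted p = 0.0013). The arrays of the lines did not overlap in 10 of the 11 genes (background of falls without overlap 15.8%). Of 18 cell cycle genes 6 were higher by small amounts and none lower, with the replication helicase gene Mcm5 at 0.51 (SE 0.1, adjusted p = 0.00035). That count was 1 without WT replicate 1 and 8 without WT replicate 2.

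**Figure D3:**
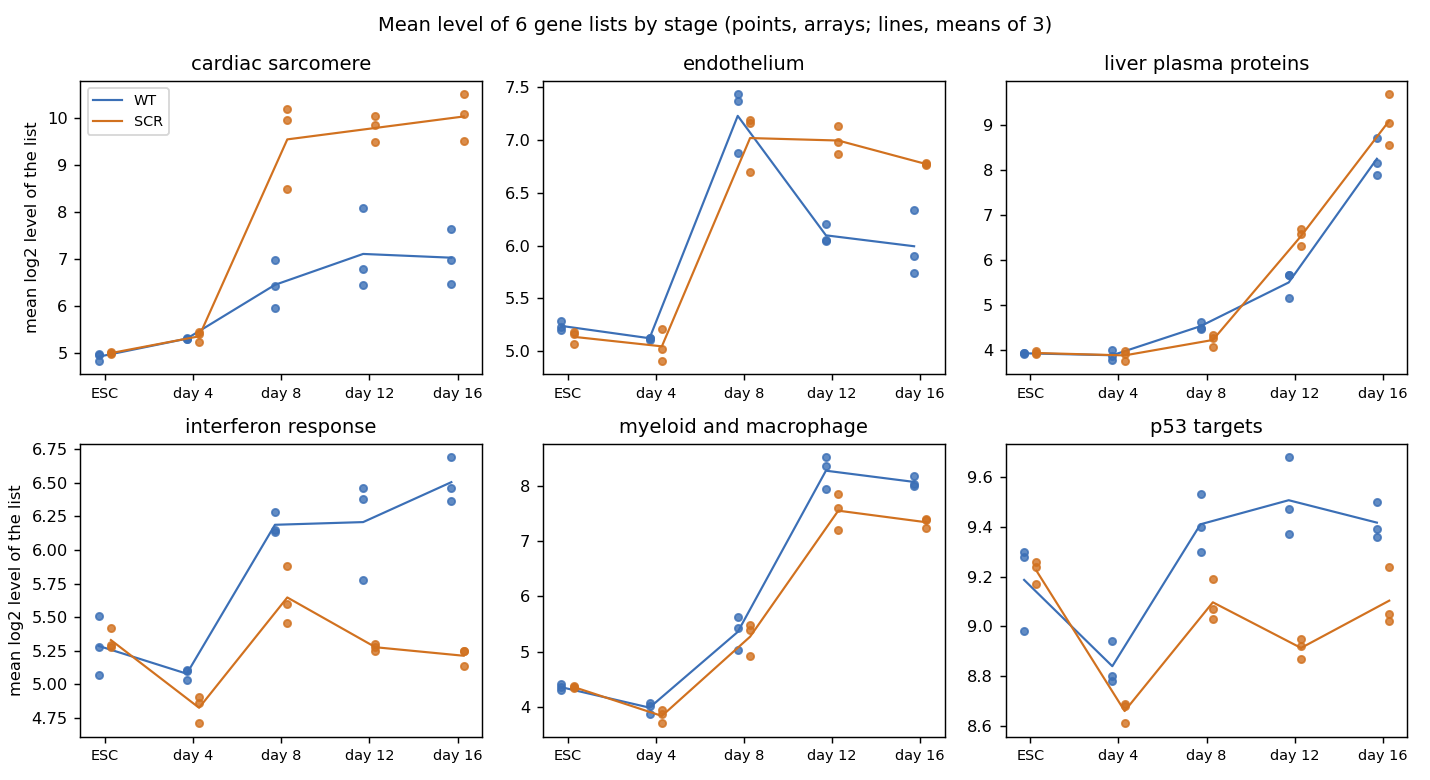
Mean log2 level (vertical axis) of 6 gene lists at each stage in WT (blue) and SCR (orange); points are arrays and lines join the means of 3. The sarcomere lists of the lines part by day 8, the endothelium and liver lists part at day 12, and the interferon response means at day 12 lie at 5.78 to 6.46 in WT and 5.25 to 5.3 in SCR.

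Genes of the placenta and of the reproductive homeobox cluster were among the largest falls. Tpbpa, the marker of spongiotrophoblast, stood at 6.61, 6.23 and 5.72 in WT and at 3.36, 3.48 and 3.46 in SCR EBs (6.74-fold lower, difference -2.75, SE 0.2, adjusted p = 1.3e-11). Serpinb9g, a serpin of the placental cluster on chromosome 13, stood at 5.32, 5.94 and 3.71 against 2.56, 3.18 and 2.56 (4.67-fold lower, SE 0.39, adjusted p = 9.6e-05). Rhox6, an X-linked homeobox gene of placenta and germ cells, stood at 6.47, 7.12 and 6.42 against 3.6, 4.24 and 3.63 (7.19-fold lower, SE 0.28, adjusted p = 4.6e-09). The trophoblast list as a whole was mixed, with 2 higher and 2 lower of 5. Plac1, a placental membrane protein gene, was 3.26-fold lower (SE 0.34, adjusted p = 0.0005), while the transcription factor genes Elf5 (3.8, 4.6 and 3.49 in WT against 6.09, 6.67 and 5.99 in SCR EBs; 4.88-fold, SE 0.24, adjusted p = 1.5e-08) and Gata3 (2.26-fold, SE 0.19, adjusted p = 2.7e-05), which epithelia outside the placenta also use, were higher. The factor gene Tfap2c was called lower at all 5 stages, at day 12 by a difference of -0.79 (adjusted p = 0.025). That day 12 call was lost when any array other than WT replicate 3 was left out, most without WT replicate 2 (-0.41, adjusted p = 0.25).

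Of 20 imprinted genes 5 were lower and 2 higher; the falls numbered 3 without SCR replicate 1 or 3 or WT replicate 1 or 3, and the rises 0 without WT replicate 3. Plagl1, a zinc finger gene expressed from the paternal allele that slows the cell cycle, stood at 10.63, 11.42 and 10.83 in WT and at 6.81, 8.77 and 6.66 in SCR EBs (11.7-fold lower, difference -3.55, SE 0.38, adjusted p = 2.1e-08). SCR replicate 2 was the highest SCR array and still lay below every WT array. The non-coding RNA gene Meg3, expressed from the maternal allele, stood at 7.22, 8.5 and 7.6 against 6.19, 5.8 and 5.81 (3.58-fold lower, SE 0.28, adjusted p = 1.3e-05). Its neighbour Dlk1, expressed from the paternal allele and named after its value was seen, stood at -0.63 (adjusted p = 0.045). Cdkn1c (p57), a growth inhibitor, was 2-fold higher (SE 0.27, adjusted p = 0.0077; 0.054 without WT replicate 3), and Phlda2, a brake on placental growth, was lower by a difference of -0.83 (SE 0.19, adjusted p = 0.0018). The growth factor gene Igf2, named after its value was seen, stood at -0.16.

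Hox genes, whose order along each cluster follows the body axis, moved in both directions, 7 higher and 4 lower of 31 (median 0.04). Hoxc8 stood at 8.92, 7.67 and 8.37 in WT and at 5.73, 5.33 and 5.18 in SCR EBs (7.5-fold lower, difference -2.91, SE 0.23, adjusted p = 3.6e-11). Hoxa2, the most anterior HoxA gene measured here, stood at 3.27, 3.71 and 3.08 against 4.48, 5 and 5.41 (3.05-fold higher, SE 0.22, adjusted p = 2.5e-06) and Hoxb3 at 6.74, 7.59 and 5.77 against 8.44, 8.23 and 7.78 (2.73-fold higher, SE 0.31, adjusted p = 0.0011). Hoxd13, the most posterior gene of its cluster, was 2.57-fold higher (SE 0.27, adjusted p = 0.00036). The other calls, named after their values were seen, were Hoxa4 (1.35), Hoxa5 (1.13), Hoxb4 (0.98) and Hoxb5 (0.82) upward and Hoxc10 (-1.03), Hoxa11 (-0.98) and Hoxc9 (-0.74) downward. The rises thus lay mostly in groups 2 to 5 and the falls in groups 8 to 11. All 3 of the lower HoxC genes lie on chromosome 15, and without WT replicate 2 the falls numbered 8.

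Chromosome 15 stood apart from the other chromosomes. Over its 359 brighter genes, those whose mean over all arrays exceeded the median gene's, the median difference was -0.2, while that of 8721 such genes elsewhere was 0.02 and that of the other autosomes and the X lay between -0.01 and 0.05. Of the 359, 79.4% lay below 0, against 47.6% elsewhere. The deviation of this median from the mean of the 6 arrays was 0.12, 0.05 and 0.14 in the WT arrays and -0.12, -0.12 and -0.06 in the SCR arrays. The medians of chromosome 15 at the other stages were -0.35 in ESCs, -0.35 at day 4, -0.26 at day 8 and -0.26 at day 16. In all, 128 of 724 chromosome 15 genes were called lower (17.7%), against 7.3% elsewhere. Of the 724, 22 were called higher, against 1283 of all 18193 genes (7.05%). Falls of at least 2-fold numbered 24 of the 724, against 250 of the 18193 (1.37%). Of the 21 genes lower at all 5 stages 18 were on chromosome 15, among them Aard (7.5, 7.02 and 7.43 in WT against 6.39, 6.18 and 5.77 in SCR EBs; difference -1.2, SE 0.25, adjusted p = 0.00085) and the mitochondrial topoisomerase gene Top1mt (-0.91, SE 0.15, adjusted p = 2.4e-05). Outside it were the interferon-induced gene Ifi35 (-1.41, SE 0.17, adjusted p = 3.4e-07), the placental connexin gene Gjb5 (-0.78, adjusted p = 0.0052; 0.057 without SCR replicate 2) and Tfap2c. The 1 gene higher at all 5 stages was Tmx4, a thioredoxin-related membrane protein gene (0.75, SE 0.13, adjusted p = 7.8e-05). The lower named genes Hoxc8, Krt7, Krt8, Krt18, Cela1, Dab2, Atf4 and Nr4a1 also lie on chromosome 15, and the part of the chromosome's shift in their differences was not tested.

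**Figure D4:**
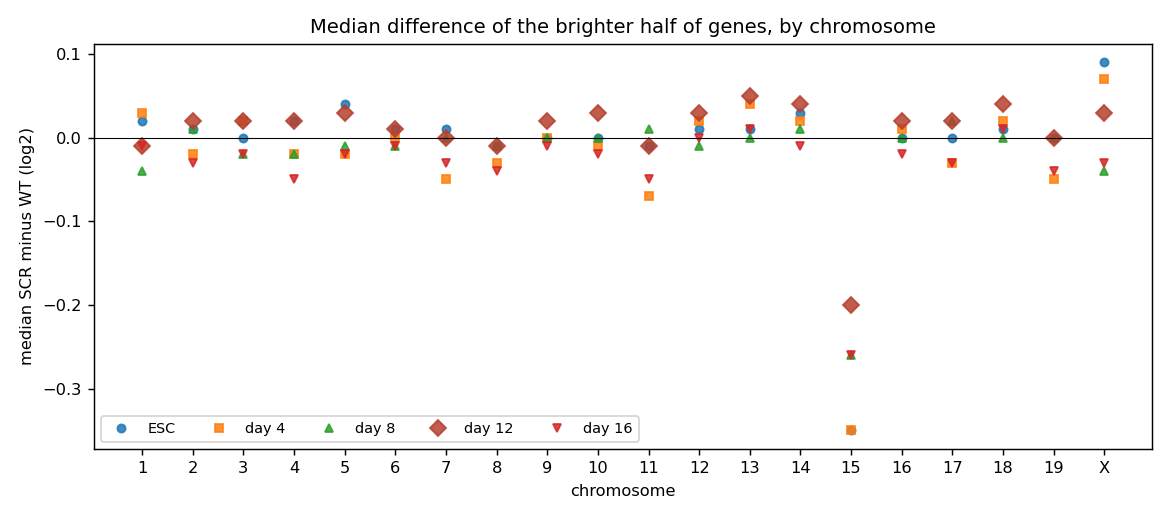
Median SCR minus WT difference (log2, vertical axis) over the brighter genes of each autosome and the X, at each stage; the red diamonds are day 12. Chromosome 15 lies at -0.2 to -0.35 at all 5 stages, and at day 12 the other autosomes and the X lie between -0.01 and 0.05.

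Some keratins of simple epithelia were lower. Of 15 epithelium and keratin genes 5 were lower (3 without WT replicate 1 or WT replicate 3) and 1 higher (2 without WT replicate 2). Krt7 stood at 9.7, 8.98 and 9.71 in WT and at 7.39, 8.05 and 8.19 in SCR EBs (3-fold lower, SE 0.24, adjusted p = 1.1e-05), and the partners Krt18 and Krt8 at -1.22 (SE 0.27, adjusted p = 0.0017) and -1.1 (SE 0.31, adjusted p = 0.012; 0.098 without WT replicate 1). These 3 are on chromosome 15, with the shift given above; Krt19 (-1.07) and the claudin gene Cldn4 (-1.02), named after their values were seen, are on others. Trp63, the factor of stratified epithelia, stood at 4.84, 5.69 and 4.54 against 5.91, 6.69 and 6.72 (2.67-fold higher, SE 0.29, adjusted p = 0.00059), while its keratin target Krt5 stood at 0.07 (adjusted p = 0.84).

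Genes that respond to low oxygen rose in 7 of 14 cases and fell in none (median 0.59; 7 without WT replicate 2). The means of that list were 8, 8.04 and 8.04 in WT and 8.93, 8.18 and 8.88 in SCR arrays, so that SCR replicate 2 lay near WT. Ankrd37 stood at 4.23, 4.16 and 4.16 against 6.62, 4.64 and 5.87 (2.88-fold higher, SE 0.28, adjusted p = 0.0002). Adm (adrenomedullin) stood at 1.16 (adjusted p = 0.0027) and Bnip3, a mitophagy receptor, at 1.14 (adjusted p = 0.0067). The count rested on SCR replicate 1, without which it was 2 and Adm stood at 0.73 (adjusted p = 0.066) and Bnip3 at 0.8 (adjusted p = 0.094). The metal-binding genes Mt1 (12.05, 12.73 and 12.62 in WT against 10.51, 11.89 and 11.19 in SCR EBs; difference -1.27, SE 0.29, adjusted p = 0.0021) and Mt2 (-1.32, SE 0.33, adjusted p = 0.0049; 0.08 without SCR replicate 1) were lower. Of 11 genes of the unfolded protein and amino acid response 1 was lower (background of falls 7.67%), the factor gene Atf4 on chromosome 15 (-0.73, SE 0.18, adjusted p = 0.0035), and 5 were without WT replicate 2. Of 9 immediate early genes 3 were lower, among them Nr4a1 on chromosome 15 (-0.62, SE 0.16, adjusted p = 0.0051), and none was called without WT replicate 1. Of 14 cholesterol synthesis genes 2 were higher, Hmgcs1 (0.6, adjusted p = 0.0058) and Idi1 (0.7, adjusted p = 0.022), and none without SCR replicate 3 or WT replicate 1.

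Residual pluripotency and germline genes mostly lay lower in SCR EBs, though most were not called. Of 25 pluripotency genes 5 were lower and 2 higher (median -0.49, and -0.3 without WT replicate 2). Dppa3 (Stella), of naive stem cells and germ cells, stood at 6.76, 7.35 and 6.82 in WT and at 4.77, 5.42 and 5.45 in SCR EBs (3.39-fold lower, SE 0.28, adjusted p = 1.7e-05), and Tet1, the 5-methylcytosine dioxygenase, at 7.09, 7.99 and 7.08 against 8.24, 8.2 and 8.31 (difference 0.86, SE 0.16, adjusted p = 0.00025). Only 1 pluripotency gene was called higher when any array other than WT replicate 2 was left out, and only 1 was called lower without WT replicate 2, WT replicate 1, SCR replicate 1 or SCR replicate 2. Of 14 germline genes 3 were lower and none higher, and all differences lay between -0.96 and -0.01 (median -0.22). The calls were led by Dazl, a germ cell translation regulator (-0.96, SE 0.23, adjusted p = 0.0037), and Tex19.1 (-0.92, SE 0.21, adjusted p = 0.0024). At day 16, 12 of the 25 pluripotency genes and 8 of the 14 germline genes were lower and none higher (4.25% of all genes were lower at that stage). Of 9 primed epiblast genes 2 were higher, Otx2 (1.41, adjusted p = 0.025) and Pou3f1 (1.35, adjusted p = 0.011), both of which also mark neural cells. Neither was called without WT replicate 3, where Otx2 stood at 0.59 (adjusted p = 0.44) and Pou3f1 at 0.93 (adjusted p = 0.15).

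No member was called in the lists of neural progenitors (11 measured), neurons (15), glia and neural crest (6) and Y-linked genes (4). WT replicate 2 was high in the neuron list, with list means of 5.01, 6.26 and 4.73 in WT and 5.29, 5.09 and 5.39 in SCR arrays, and without it 3 neuron genes were called higher in SCR. The intermediate filament gene Nes stood at 7.38, 7.32 and 7.42 in WT and at 7.47, 7.23 and 7.43 in SCR EBs (difference 0, SE 0.18, adjusted p = 0.99). Ednrb, a receptor of neural crest, stood at 10.69, 10.6 and 10.68 against 10.75, 10.32 and 10.27 (-0.21, SE 0.13, adjusted p = 0.34), and the Y-linked Eif2s3y at 0.02 (SE 0.17, adjusted p = 0.96). A difference that did not pass does not show that the levels were equal.

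The day 12 differences were then set against other stages, measured on other arrays of the same lines. Replicate numbers recur between stages, and WT replicate 2 was the highest WT array of the cardiac sarcomere list at day 16 too (7.63, beside 6.99 and 6.47), so the stages are not shown to be independent. Of the 337 rises of at least 2-fold, 159 were called in the same direction at day 8 (47.2%, against 2.83% of all genes) and 215 at day 16 (63.8%, against 3.86%). Only 24 were called higher in ESCs (7.12%, against 4.43%) and 8 at day 4 (2.37%, against 0.61%). Of the 250 falls, 109 were called lower at day 8 (43.6%, against 4.16%) and 137 at day 16 (54.8%, against 4.25%). In ESCs 25 of the 250 were called lower and 23 higher. Of the sarcomere list 17 of 18 were higher at day 8 and all 18 at day 16, with medians of 2.96 and 3.14, so the cardiac difference of day 12 stood between similar values on both sides. Of the interferon response list 9 were lower at day 8 and 11 at day 16, with medians of -0.66 and -0.95.

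A test of the change between stages called 250 genes between days 8 and 12 (1.37%), 174 with a more positive difference at day 12 (0.956%) and 76 with a more negative one (0.418%). Without WT replicate 2 these calls numbered 457, without WT replicate 1 142 and without WT replicate 3 138. The endothelium list was part of it: none of the 17 genes was higher at day 8 and 2 were lower, while the day 12 difference was larger than that of day 8 in 8 genes. At day 8 its list means were 6.88, 7.43 and 7.37 in WT and 6.7, 7.19 and 7.16 in SCR arrays, so that between the days WT EBs went to a lower level and SCR EBs stayed within their range of day 8. For Cdh5 the difference was -0.17 at day 8 and 1.95 at day 12 (change 2.11, SE 0.37, adjusted p = 0.00077). The liver plasma proteins list went from 3 lower and none higher at day 8 to 7 higher at day 12, with 7 members called for the change. Over all genes the shares called at day 8 were 2.83% higher and 4.16% lower. Alb changed from a difference of 0.2 to 2.36.

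Clca1 and Slc26a7 appeared in SCR EBs between these days. Clca1 stood at 3.03 ± 0.21 in WT and 3.31 ± 0.41 in SCR EBs of day 8 (SD, n = 3), and the change in its difference was 3.49 (adjusted p = 1.4e-05). Slc26a7 stood at 2.46 ± 0.19 and 2.57 ± 0.13 (SD, n = 3), with a change of 3.35 (adjusted p = 5.5e-08). The lipocalin-like apolipoprotein gene Apom crossed over, from a difference of -2.62 at day 8 to 1.3 at day 12 (5.36, 5.89 and 5.68 in WT against 6.98, 7.24 and 6.6 in SCR EBs; change 3.92, adjusted p = 7.3e-08). The aminopeptidase gene Enpep went from -1.87 to 1.46 and the extracellular guidance gene Reln (reelin) from -0.92 to 2.16. In the other direction Tdo2 went from -1.16 to -3.56, Nppb from -0.2 to -2.54 and Bmper, a modulator of BMP signals, from 1.85 to -0.9. The last of these was called at day 12 with an adjusted p of 0.034, and not without WT replicate 1 (-0.55, adjusted p = 0.32) or 4 other arrays.

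**Figure D5:**
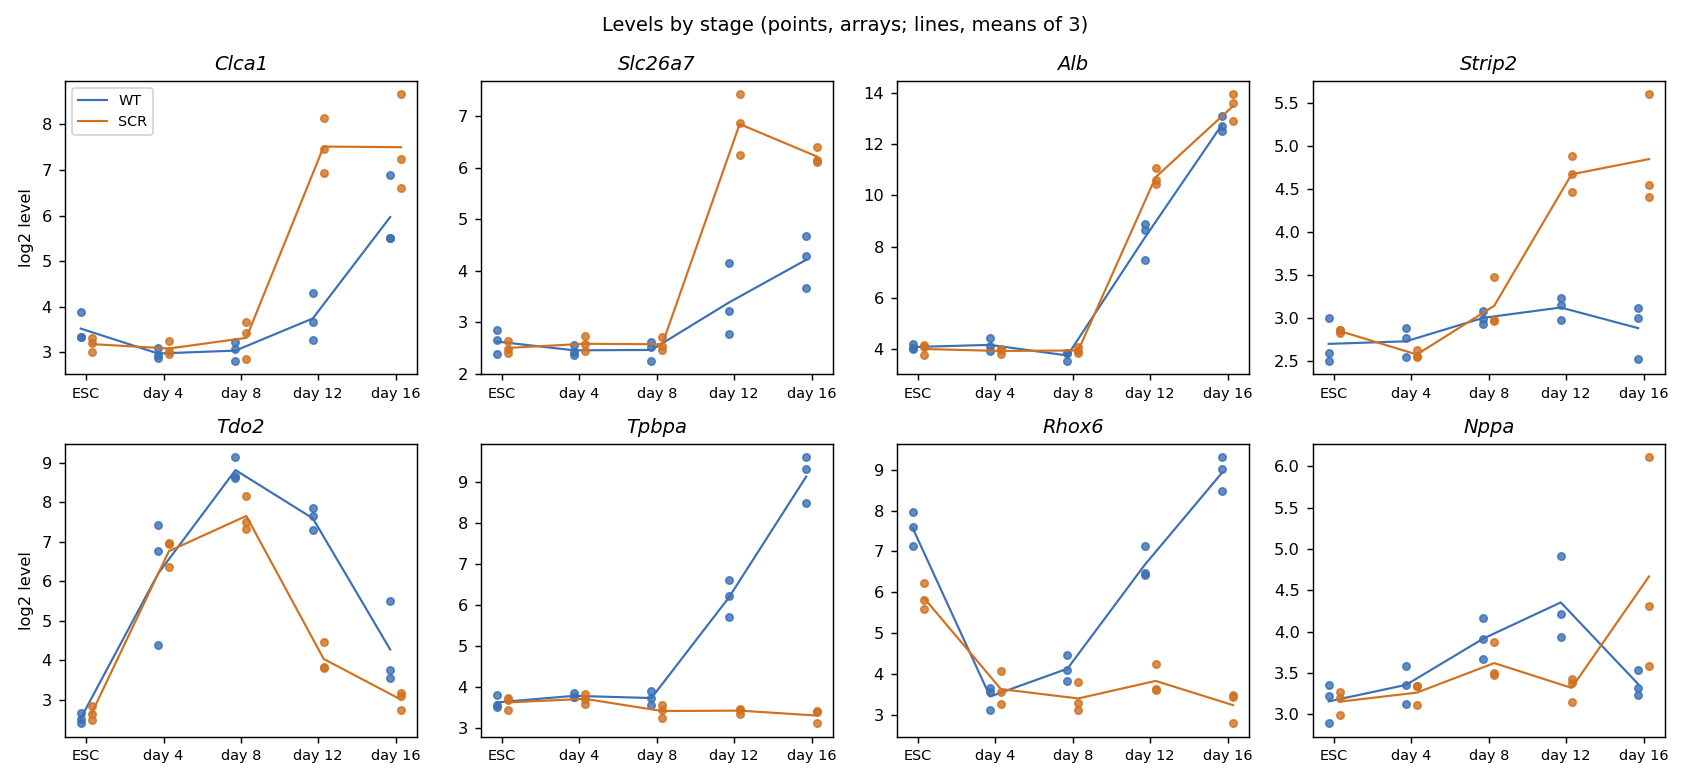
Log2 level (vertical axis, scale differs between panels) of 8 genes at each stage in WT (blue) and SCR (orange); points are arrays and lines join the means of 3. Clca1, Slc26a7, Alb and Strip2 part upward in SCR EBs at day 12, Tpbpa and Rhox6 rise between days 8 and 16 in WT and not in SCR EBs, and Nppa changes sides between days 12 and 16.

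Between days 12 and 16 the test called 240 genes (1.32%), 129 with a more positive difference at day 12 (0.709%) and 111 with a more negative one (0.61%), and 564 without WT replicate 2. The placental genes named here went further apart by day 16. Tpbpa reached 9.13 ± 0.59 in WT and 3.31 ± 0.17 in SCR EBs (SD, n = 3), so that its difference went from -2.75 to -5.82 (change 3.07, adjusted p = 3.4e-09). The cathepsin gene Ctsj and the prolactin family genes Prl2a1 and Prl7d1, all of placenta, stood at -1.31, -1.42 and -0.7 at day 12 (adjusted p = 0.00019, 4.3e-06 and 0.0007) and at -6.24, -4.87 and -4.4 at day 16. Rhox6 went from -2.85 to -5.7 and Serpinb9g from -2.22 to -6.39. The differences of all 6 genes were thus larger at day 16 than at day 12. All but Rhox6 were named for the size of this change, so its direction in them follows from the choice.

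Other differences changed side or grew. Nppa lay below WT at day 12 (-1.03) and above it at day 16 (1.3), a change of -2.33 (adjusted p = 0.001). The claudin gene Cldn2 went from -1.53 (5.93, 5.56 and 6.76 in WT against 4.22, 4.92 and 4.51 in SCR EBs; SE 0.25, adjusted p = 2.4e-05) to 1.61, and the elastase gene Cela1 on chromosome 15 from -1.36 (adjusted p = 0.017; 0.087 without WT replicate 1) to 2.44. The muscle genes Sln and Myom2, an M band protein gene, grew from 1.34 to 3.8 and from 1.78 (SE 0.27, adjusted p = 1.3e-05) to 4.14. Differences of day 12 that were smaller at day 16 included those of Isl1 (2.15 to 0.51), Foxc1 (2.21 to 0.3), Id3 (1.54 to 0.34), Elf5 (2.29 to -0.59) and Lgr5 (1.44 to -0.01).

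The KD-labelled EBs of day 12 were set beside these values; their comparison with WT shares the WT arrays and that with SCR the SCR arrays, so values are only placed side by side. Against WT 9217 genes were called (50.7%; 27.1% higher and 23.6% lower) and against SCR 10115 (55.6%; 31% higher and 24.6% lower). In several groups SCR and KD-labelled EBs lay on opposite sides of WT. The sarcomere list means were 5.02, 5.14 and 5.13 in KD-labelled arrays, below all WT arrays, with 13 of 18 genes lower than WT (median -1.51) and all 18 lower than SCR (median -4.53). For Myh6 the KD-labelled mean was 5.5 beside 8.46 in WT and 11.97 in SCR EBs, and for Actc1 4.48 beside 8.97 and 12.36. Chromosome 15 also lay on opposite sides, with medians of 0.55 for KD-labelled minus WT and -0.2 for SCR minus WT. In other groups both lay on the same side of WT. The KD-labelled means were 2.4 for Tdo2, 4.59 for Plagl1, 3.63 for Hoxc8 and 5.24 for Ifi27l2a, each below the WT and SCR means. The interferon response list means were 6.12, 5.92 and 6.06 in KD-labelled arrays, within the WT range of 5.78 to 6.46.

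Strip2, the gene for which the third line is labelled as silenced, differed between the controls. It encodes a scaffold protein of the STRIPAK complexes, which hold striatins, kinases of the germinal centre family and phosphatase PP2A. Its probe set, the only one on the array with that symbol and a dim one, stood at 3.15, 3.23 and 2.98 in WT and at 4.67, 4.88 and 4.46 in SCR EBs of day 12 (2.93-fold higher, SE 0.19, adjusted p = 4.1e-07). The difference at day 8 was 0.14, and the change between the days 1.41 (adjusted p = 0.0028). The KD-labelled mean was 3.75, between the controls: above WT by 0.63 (adjusted p = 0.0061) and below SCR by a difference of -0.92. Of the 16 STRIPAK genes measured, 3 were higher and 1 lower (background 7.05% and 7.67%). The lower was the kinase gene Stk26 (10.91, 10.6 and 10.76 in WT against 9.83, 9.66 and 9.69 in SCR EBs; difference -1.03, SE 0.21, adjusted p = 0.00068), and the other rises, Fgfr1op2 (0.31) and the kinase gene Stk24 (0.25), each lost their call with most single arrays left out, at most to adjusted p = 0.19. Of 10 genes of the RNA interference machinery 1 was higher, near the background of rises of 7.05%. It was the Argonaute gene Ago1 (7.99, 8.5 and 8.03 against 8.85, 8.83 and 8.81; difference 0.66, SE 0.11, adjusted p = 2.6e-05).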

How the data were processed

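Expression was measured on 45 arrays, of which 6 (3 WT and 3 SCR EBs of day 12) made up this comparison and 45 the fit. The values are log2 signals of 45037 probe sets as deposited by the authors, with 2 decimals. RMA, Partek 6.6 and Affymetrix Expression Console are named in the submitters' processing notes, while their roles and order are not given in the sources used here; raw scans were not used. RMA usually includes quantile normalization, which would hide a shift common to all genes. No more than 1.97% of values were identical between any 2 day 12 arrays of the same line. Pairs of a WT and an SCR array were not checked for this.

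The platform annotation gave 34945 probe sets 1 gene symbol, 932 several and 9160 none. Each of 18193 genes was represented by its brightest probe set (mean of 45 arrays), with no filter on level; 204 probe sets were of genes that the RefSeq table lacks and kept their symbol. A mean for each of 15 line and stage groups was fitted with limma 3.58.1 (R 4.3.3; 30 residual degrees of freedom, 5.17 from the prior), and p-values were adjusted by Benjamini-Hochberg over all genes of a contrast. Calls were made at an adjusted p under 0.05. SE are limma's and SD those of 3 arrays. The procedure was tested on simulated data. Motifs were searched with Python 3.11.15 and pandas 2.3.3, and figures drawn with matplotlib 3.10.9.

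Titles and source names gave the groups and numbers. In each line, another label field of the first day 8 array reads ESC; the title was followed. Same-numbered WT and SCR arrays of day 12 deviated together from their group means (correlations 0.251, 0.102 and 0.304 for numbers 1, 2 and 3; different numbers -0.224 to 0.006). All same-numbered values thus lay above 0.1, number 2 barely, and the numbers were taken to pair the samples in an alternative fit. The chip numbers in the source names are the only label of such pairs. The SE, adjusted p and calls in the Results come from the fit without pairs, and the fit with pairs is under the dependence on processing.

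The comparison, 38 gene lists and the rule for named genes were chosen with earlier results of these data known. Named are Strip2; the 12 largest rises and 12 largest falls among called genes whose arrays do not overlap; up to 5 each way called at all 5 stages; the 5 largest changes each way against day 8 and day 16 among genes called at day 12; and, from each list, the called members that changed most (up to 4), or up to 2 of the brightest where none is called. The first member of a list may be named, clone and locus numbers are not, and other names are said to be chosen after their values. Of 151 named genes 76 had more than 1 probe set, and none had a further one called in the opposite direction. Alternatives were the 6 arrays alone, arrays centred on medians, cyclic loess, bright genes, other uses of probe sets, a variance trend, the replicate block and each array left out.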

Additional observations from a re-analysis of the deposited data

Results flagged for a closer look

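The differences between SCR and WT EBs were not the same at all stages. The values below are the change of SCR minus WT (log2) between day 12 and another day, for named genes called at day 12 whose change passed limma's test at an adjusted p under 0.05 over all genes; a positive value is a more positive difference at day 12.

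Against day 8, the change was positive for Apom (3.92), Clca1 (3.49), Slc26a7 (3.35), Enpep (3.33), Reln (3.08), Lyve1 (2.98), Fgg (2.35), Alb (2.16), Cdh5 (2.11), Pou3f1 (2.05), Apoa2 (2.03), Elf5 (1.87), Pecam1 (1.83), Serpinc1 (1.65), Sox18 (1.52), Strip2 (1.41) and Lgr5 (1.31). It was negative for Bmper (-2.75), Tpbpa (-2.44), Tdo2 (-2.4), Nppb (-2.34), Rhox6 (-2.12), Srpx2 (-1.95), Pf4 (-1.94), Acta1 (-1.81), Ifi27l2a (-1.73), Ifi202b (-1.59), C1qa (-1.29), Prl2a1 (-1.27), Hapln1 (-1.01) and Prl7d1 (-0.78).

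Against day 16, the change was positive for Ctsj (4.93), Serpinb9g (4.16), Prl7d1 (3.7), Prl2a1 (3.45), Tpbpa (3.07), Elf5 (2.88), Rhox6 (2.85), Clca1 (2.24), Pou3f1 (2.13), Gjb5 (2.11), Tfap2c (2.07), Trp63 (1.97), Foxc1 (1.91), Alb (1.64), Isl1 (1.64), Slc26a7 (1.46), Lgr5 (1.45), Tex19.1 (1.44), Gata3 (1.26), Id3 (1.2), Id1 (1.16), Phlda2 (1.11) and Mcm5 (0.6). It was negative for Cela1 (-3.8), Cldn2 (-3.15), Sln (-2.46), Myom2 (-2.36), Nppa (-2.33), Tdo2 (-2.29), Krt20 (-1.79), Rbp4 (-1.5), Cd14 (-1.42) and Tnnt3 (-0.99).

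Groups of 3 arrays are too small for a test of single outlying arrays, so no array, WT replicate 2 included, was tested as an outlier.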

How the results depend on the processing

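The counts of genes called depended on which arrays entered. Against 2678 calls at day 12, the 6 arrays of day 12 alone gave 1538, and single arrays left out gave 1448 to 3434. The 587 calls of at least 2-fold became 203 over genes above the median mean level, which tests fewer genes, and 489 to 835 with single arrays left out. The 250 changes against day 8 became 44 over those genes (138 to 457 with single arrays left out) and the 240 against day 16 became 36 (160 to 564). The 6 arrays alone cannot give a change between stages. With the replicate block, which pairs arrays by number, calls numbered 3004 at day 12 (590 of at least 2-fold), 295 against day 8 and 316 against day 16; it lost no call of a named gene. The share of rises among calls was 47.9%, and 38% with arrays centred on their medians, where the median of all genes was -0.08. Of 143 named calls 89 passed under every alternative that tested them and 54 were lost in at least 1 (the fit over bright genes tested 64 of the 143), most without WT replicate 1 (35 lost) and with the 6 arrays alone (33). Reversed signs were Hapln1 as the mean of its probe sets (0.21) and values of uncalled genes near 0: Nes (-0.04 centred, -0.02 by loess, -0.04 to 0.08 with single arrays left out), Eif2s3y (-0.02 centred, 0 by loess, -0.01 as the mean of probe sets, -0.07 to 0.09 with single arrays left out), and, with single arrays left out, Fabp7 (-0.35 to 1.02), Nefl (-0.14 to 0.59) and Elavl4 (-0.78 to 0.26). The causes were not tested. Probe sets near the low end of the arrays, such as those of Strip2, Tecrl and Ctsj, limit how exactly their differences can be read.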
